A study of Mus musculus with 9 samples.

Results

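The podocyte slit diaphragm and identity genes considered here are Nphs1, Podxl, Wt1, Synpo, Cdkn1c, Plce1, Ptpro and Magi2, chosen by symbol. All 8 were present among the 13081 genes of the table. Kidney RNA was sequenced from wild-type mice, with 4 libraries from mice aged 3 months (young) and 5 libraries from mice aged 16 months (old). Both ages share the wild-type genotype, and the labels' treatment field holds the age and names no agent. The study's text gives the strain as C57BL/6, and the sex of these mice is not given in the labels. The tissue is kidney, not isolated glomeruli, so podocyte transcripts were read among those of all other kidney cells. In such bulk samples, fewer cells of a type and less RNA per cell cannot be told apart. Library names carry a different prefix at each age, and a difference in handling tied to those names cannot be told apart from the age difference.

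Podocytes are the epithelial cells that wrap the glomerular capillaries with interlocking foot processes. The gaps between foot processes are bridged by the slit diaphragm, a cell junction built around nephrin and tied to actin filaments inside the cell, and together with the basement membrane it keeps plasma proteins out of the urine. Mature podocytes rarely divide, and inherited loss of several of their genes causes nephrotic syndrome.

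Values are normalised counts, that is, reads of a gene divided by a size factor for its library. The libraries held 5093029 to 6355095 reads in young and 4486406 to 5794960 reads in old mice. Mitochondrial genes took 27 to 29.7% of the reads in young and 35.8 to 38.1% in old kidneys. A gene was called when limma gave a Benjamini-Hochberg adjusted p under 0.05 for old against young over the 12667 genes tested, which reached 10 normalised counts in 4 or more libraries. By this measure 59.7% of tested genes were called (29.2% higher and 30.5% lower in old kidneys), and in 49.0% the ages did not overlap. edgeR on the recovered whole reads called 60.4%.

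All 8 are protein-coding genes of GENCODE vM21 (GRCm38). Nphs1 lies at chr7:30458315-30487223 and Cdkn1c at chr7:143458339-143461050. Podxl lies at chr6:31519488-31563981 and Ptpro at chr6:137252319-137463233. Wt1 is at chr2:105126529-105173616, Magi2 at chr5:19227036-20704792, Synpo at chr18:60593973-60660142 and Plce1 at chr19:38481109-38785030. The longest transcript ran from 1901 bases for Cdkn1c to 9439 bases for Plce1, against a median of 3307 over the genes of the table with a match. Because reads came from transcript ends, a gene's count is meant to follow the number of its transcripts rather than their length, and isoforms that share an end are not told apart.

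The 8 genes did not move together with age. In old kidneys Nphs1 and Synpo were higher and Podxl was lower, Cdkn1c was slightly lower, and Wt1, Plce1, Ptpro and Magi2 were not called. The called genes were 4 of 8 (2 higher and 2 lower), against the 59.7% of all tested genes given above, so the share of changed genes was no larger than the background. Their median log2 fold change was -0.02, and that of all tested genes was -0.0027. Summed over the 8 genes, the level was 879 to 1042 normalised counts in young and 869 to 984 in old kidneys, and the ages overlapped. All 8 genes passed the filter on low values, Nphs1 through the old libraries, since 2 young libraries and 5 old libraries reached 10 normalised counts. Without Nphs1, 1 of the 7 other genes was higher and 2 were lower, with a median of -0.08.

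**Figure D1:**
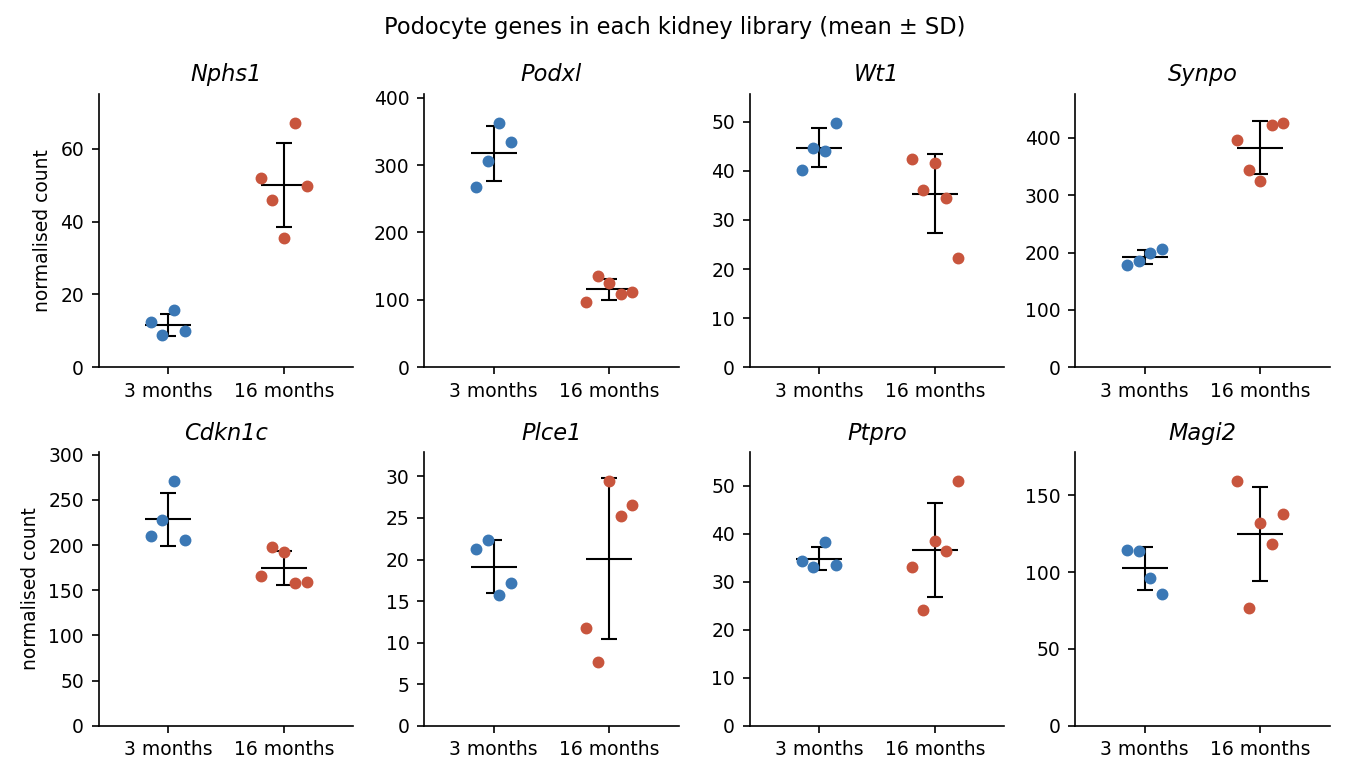
Normalised counts of the 8 podocyte genes in each library (points, 4 young at 3 months and 5 old at 16 months), with the mean and SD of each age, 1 panel for each gene and a linear axis from 0. The old libraries lie above all young libraries for Nphs1 and Synpo and below them for Podxl and Cdkn1c. The other 4 genes overlap.

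Nphs1 encodes nephrin, the adhesion protein of the immunoglobulin superfamily that spans the slit. Its normalised counts were 12.3, 8.74, 15.7 and 9.96 in young replicates 1 to 4 and 51.9, 45.9, 35.5, 67.2 and 49.9 in old replicates 1 to 5. Each old library was above each young one. The means were 11.7 ± 3.06 (SD, n = 4) and 50.1 ± 11.5 (SD, n = 5), and the log2 fold change was 2.01 (SE 0.25, adjusted p = 1.48e-06, limma). With no filter on low values the adjusted p was 1.53e-06. The young values rest on 9 to 16 reads per library and the old values on 35 to 72 reads, so the young values carry the larger relative counting error.

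WT1 is known to regulate podocyte genes, so the bases upstream of transcription starts were searched for GNGNGGGNG, the pattern of WT1 and EGR zinc fingers, on both strands. RefSeq windows of 250 bases before a start (GRCm38.p6) were at hand for Nphs1, Plce1, Ptpro and Magi2 (4 of 8 genes). The pattern was in 35.8% of all 32851 windows, in the windows of Nphs1, Ptpro and Magi2, and not in that of Plce1. The Nphs1 window held 5 overlapping matches in 2 runs, shown since Nphs1 rose most of the 8 genes, with the matched bases in capitals. The first run covers bases 227 to 211 before the start (chr7:30459826-30459852, plus strand, with 5 bases on each side) and the second covers bases 30 to 14 (chr7:30460023-30460049, plus strand). This is the RefSeq start, and GENCODE vM21 has Nphs1 transcripts that start further upstream, so both runs lie inside the gene as placed above. The Plce1 window (chr19:38523947-38524196) and the second of 2 Magi2 windows (chr5:19907268-19907517) also lie inside their genes as placed above. The lack of a match in Plce1 therefore says nothing about its most upstream start.
Nphs1 first run: cctgtGAGTGGGTGAGAGGGAGgtgat
Nphs1 second run: aggaaGGGAGGGAGGGAGGGAGggaag
A match is a string of letters and not a measured site, and nothing about WT1 binding follows from it.

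Magi2, a scaffold protein that binds nephrin at the slit diaphragm, was at 115, 114, 96.1 and 86.0 normalised counts in young and 159, 76.6, 132, 118 and 138 in old kidneys. The lowest and the highest library were both old. The log2 fold change was 0.25 (95% interval -0.13 to 0.63, adjusted p = 0.243, limma), and without old replicate 2, the lowest, it was 0.41 (adjusted p = 0.0198). Whether Magi2 was called therefore depended on 1 library.

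Synpo encodes synaptopodin, which binds and bundles actin in foot processes. It was at 179, 186, 199 and 206 normalised counts in young and at 396, 345, 326, 423 and 426 in old kidneys. Each old value exceeded each young value. The means were 192 ± 12.3 (SD, n = 4) and 383 ± 45.8 (SD, n = 5), and the log2 fold change was 0.99 (SE 0.11, adjusted p = 4.90e-07, limma).

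Podxl encodes podocalyxin, a heavily sialylated protein on the apical surface of foot processes, also made by vascular endothelium. It was at 267, 306, 363 and 335 normalised counts in young and at 96.7, 136, 125, 108 and 111 in old kidneys. Every old library was below every young library. The means were 318 ± 41.0 (SD, n = 4) and 115 ± 15.1 (SD, n = 5), and the log2 fold change was -1.45 (SE 0.13, adjusted p = 2.43e-08, limma). Podxl and Synpo thus moved in opposite directions in the same kidneys. Synpo divided by Podxl was 0.549 to 0.669 in young and 2.54 to 4.10 in old libraries.

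Ptpro, a receptor-type tyrosine phosphatase of the podocyte apical membrane, was at 34.4, 33.0, 38.2 and 33.5 normalised counts in young and at 33.0, 24.1, 38.5, 36.4 and 50.9 in old kidneys. The old range enclosed the young range. Its log2 fold change was 0.03 (95% interval -0.43 to 0.50, adjusted p = 0.906, limma).

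Plce1 encodes phospholipase C epsilon, whose loss causes an inherited nephrotic syndrome. It was at 21.3, 22.4, 15.7 and 17.2 normalised counts in young and at 11.8, 7.66, 29.4, 25.2 and 26.5 in old kidneys. Old libraries lay both below and above the young ones. The mean count was 19.1 in young and 20.1 in old libraries, whereas the mean on the log2 scale was lower in old. The log2 fold change was -0.08 (95% interval -0.81 to 0.66, adjusted p = 0.867, limma), an interval that leaves room for a change of either sign.

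Wt1, the zinc finger transcription factor that maintains podocyte gene expression, was at 40.1, 44.7, 44.1 and 49.8 normalised counts in young and at 42.4, 36.1, 41.6, 34.5 and 22.3 in old kidneys. The ages overlapped, and old replicate 5 was the lowest. The log2 fold change was -0.36 (95% interval -0.81 to 0.09, adjusted p = 0.157, limma). It was -0.21 without old replicate 5 and -0.22 with mitochondrial genes left out.

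Cdkn1c encodes p57, a cyclin-dependent kinase inhibitor present in podocytes that have left the cell cycle. It was at 210, 227, 271 and 206 normalised counts in young and at 166, 198, 193, 158 and 159 in old kidneys. The ages did not overlap, but the lowest young and highest old libraries were close. The log2 fold change was -0.38 (SE 0.12, adjusted p = 0.0117, limma). It was no longer called without young replicate 3 (-0.30, adjusted p = 0.0654), when mitochondrial genes were dropped before scaling to equal totals (-0.24, adjusted p = 0.109), or with a transcript length trend removed (-0.13, adjusted p = 0.385).

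**Figure D2:**
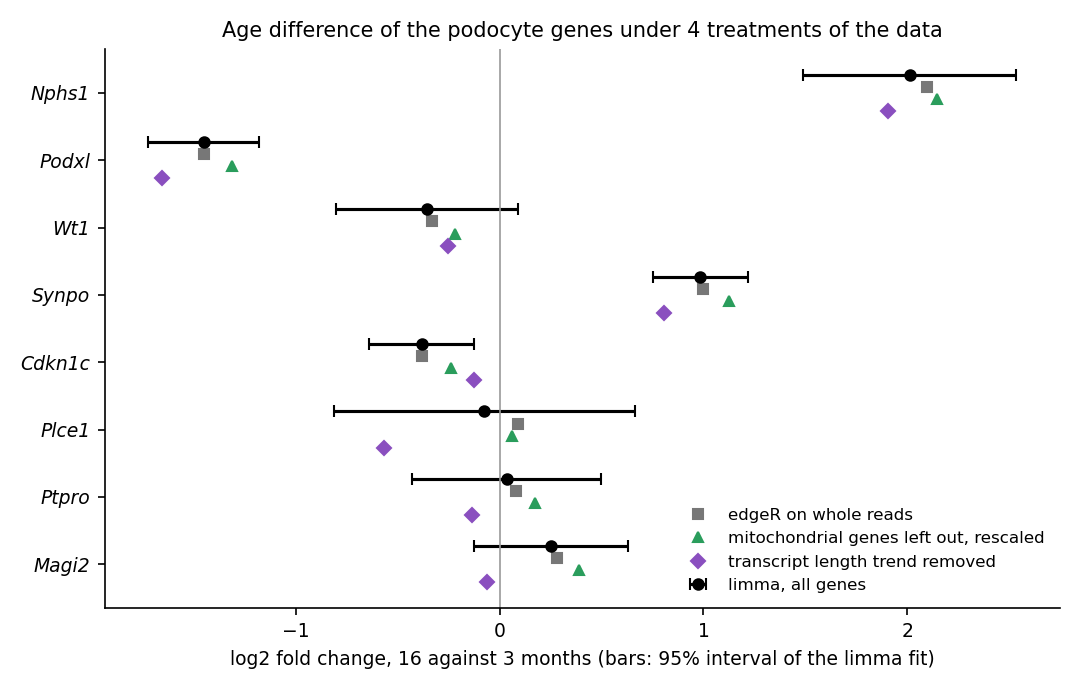
Log2 fold change of each of the 8 podocyte genes, old against young, on log2(normalised count + 1), with 95% intervals from limma. Nphs1 (2.01) and Synpo (0.99) lie above 0, Podxl (-1.45) and Cdkn1c (-0.38) lie below it, and the intervals of the other 4 genes include 0.

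The spread between kidneys differed from gene to gene. The coefficient of variation in young and old libraries was 8.87% and 22.8% for Wt1, 16.7% and 48.3% for Plce1, 6.80% and 26.6% for Ptpro, 13.6% and 24.6% for Magi2, and 6.40% and 12.0% for Synpo. It was 12.9% and 13.1% for Podxl, 13.0% and 11.0% for Cdkn1c, and 26.2% and 22.9% for Nphs1, so a wider old spread was not shared by all 8 genes. These differences in spread were not tested.

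A ratio of 2 genes within a library does not depend on how that library was scaled. Relative to Nphs1, Podxl went from 21.7 to 35 in young to 1.61 to 3.51 in old libraries, and Cdkn1c from 17.1 to 26.0 to 2.35 to 5.43. Synpo, which rose with Nphs1, went from 12.7 to 21.2 to 6.29 to 9.17. Nphs1 had the largest rise of the 8 genes, so a lower ratio to it in old kidneys restates that rise for each of the 7 other genes. The ratios are given as a description of the range between them, and they share the few young reads of Nphs1.

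**Figure D3:**
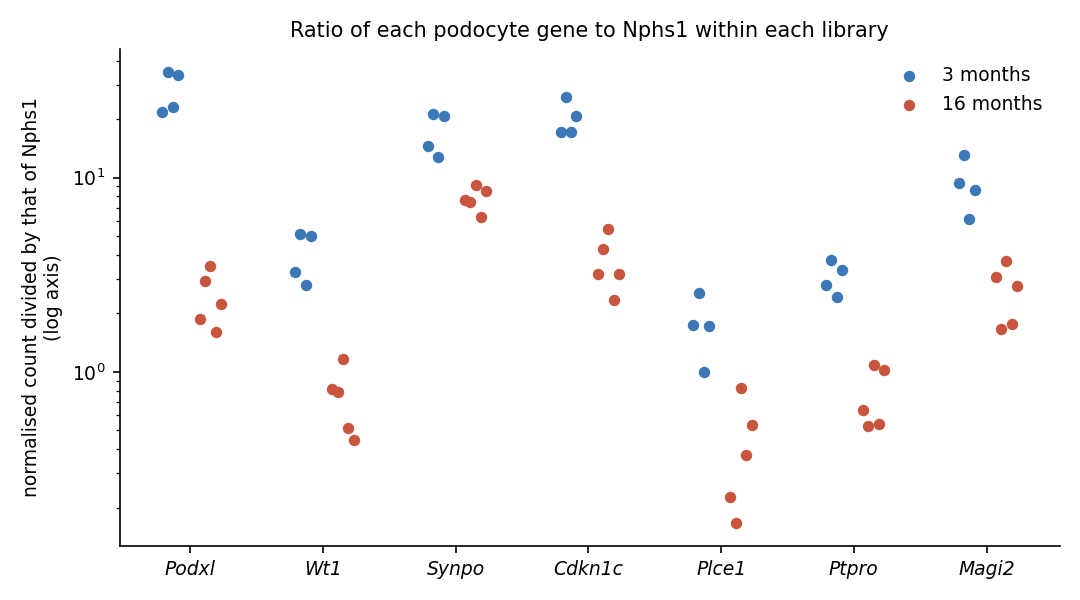
Normalised count of each of the 7 other podocyte genes divided by that of Nphs1 in the same library (log axis), for 4 young (3 months) and 5 old (16 months) libraries. Old libraries lie below young ones for every gene, with mean log2 changes from -3.57 for Podxl to -1.12 for Synpo, all of which include the rise of Nphs1 itself.

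Differences between kidneys of the same age were also compared. Over the 9 libraries, after the age mean was taken from each gene, Pearson's r between the 28 gene combinations ran from -0.76 (Podxl and Magi2) to 0.77 (Plce1 and Ptpro), with 11 positive and 17 negative and a median of -0.12. Podxl and Cdkn1c had r = 0.73, and Nphs1 and Synpo had r = 0.60. The values of Ptpro with Magi2 (0.61) and Plce1 with Magi2 (0.56) rested on old replicate 2, without which they were -0.17 and -0.25. Without that library Plce1 with Ptpro was 0.44, and with any 1 library left out the median was -0.16 to 0.0067. In that library the mean of the 8 genes was 0.26 below the age mean on the log2 scale, and in the others it was -0.05 to 0.10 from it. These values are descriptions over 9 libraries that share depth and scaling. Of 8151 genes averaging 50 or more normalised counts, those most like the mean of the 8 genes were Stxbp3 (r = 0.95, and 0.79 without old replicate 2), Rbpms (0.95 and 0.79), Fam135a (0.95 and 0.92), Tacc2 (0.95 and 0.90) and Dnajc25 (0.94 and 0.89). These are the highest of 8151 values over 9 libraries, so high values are partly a product of the search, and they were not tested. The mean they follow is of genes whose median r with each other was -0.12.

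Of 6 further podocyte markers (Lmx1b, Tcf21, Foxc2, Clic5, Thsd7a and Pla2r1), 2 were higher, 1 was lower and 3 were not called, with a median log2 fold change of 0.30. Adding the 8 genes gave 4 higher, 3 lower and 7 not called, with a median of 0.14. These counts, and those of the podocyte lists that follow, stand against 59.7% of all tested genes called, 29.2% higher and 30.5% lower. With a transcript length trend removed, Pla2r1 (0.29, adjusted p = 0.173, limma) and Tcf21 (-0.36, adjusted p = 0.142, limma) were not called, which left Clic5. With mitochondrial genes left out, 3 were higher and none lower, since Tcf21 was not called (-0.49, adjusted p = 0.0571, limma) and Thsd7a was (0.48, adjusted p = 0.0141, limma). These 6 genes are counted again in the lists that follow. Whole kidney was read, so the counts of these lists cannot be assigned to podocytes alone. Podocyte markers were thus present at both ages.

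The slit diaphragm and its adaptors, 13 tested genes of 17 listed, had 4 higher, 3 lower and 5 not called once Kirrel was set aside, with a median log2 fold change of 0.17 (5 higher and 0.20 with it). Cd2ap, an adaptor between nephrin and actin, rose by 0.71 on the log2 scale (adjusted p = 5.05e-05, limma). Iqgap1 (1.51), an actin-associated scaffold, and Tjp1 (1.54), a junctional scaffold, also rose, and the atypical cadherin Fat1 fell (-1.41). Kirrel encodes NEPH1, the partner of nephrin across the slit, and was singled out after its values were seen. It had 2, 0, 2 and 0 reads in young and 25, 15, 22, 13 and 15 reads in old libraries. The young values lie under the floor of 3 reads per library and the gene passed the filter through the old libraries alone, so no fold is given and its reads are a description.

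Of 14 tested foot process cytoskeleton genes, 9 were higher and 3 lower, with a median log2 fold change of 0.48. Myh9, a nonmuscle myosin heavy chain (0.93, and 0.56 with a transcript length trend removed), and Arhgap24, a regulator of Rac (1.07), rose. Actn4, the actin crosslinker alpha-actinin-4, had 2875 ± 111 (SD, n = 4) normalised counts in young and 1166 ± 289 (SD, n = 5) in old kidneys, and fell by 1.33 on the log2 scale (SE 0.13, adjusted p = 7.22e-08, limma). Actn4 is also made by other kidney cells.

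Of 7 podocyte transcription factors other than Wt1, 3 were higher and 2 lower, with a median log2 fold change of 0.25. With a transcript length trend removed, the median turned to -0.24, and 1 was higher and 2 were lower. Nfia went from a call higher (0.26) to a call lower (-0.24, adjusted p = 0.0316, limma). Foxc1, a forkhead factor, fell (-0.96). Dach1 rose (0.67). Tead1, a TEA domain factor, also rose (0.68), but with a transcript length trend removed it was at 0.16 and not called. Lmx1b, a homeodomain factor, was at -0.54 (95% interval -1.19 to 0.11, adjusted p = 0.140, limma).

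Of 14 tested podocyte surface and secreted genes, 7 were higher and 3 lower, with a median of 0.33, and 5 were higher and 4 lower with a transcript length trend removed. Vegfa, which sustains the glomerular endothelium and is also made by tubules, rose by 1.21 on the log2 scale, Efnb1, an ephrin of the slit diaphragm, by 1.22, and Npnt, a basement membrane ligand, by 1.33. Of 12 glomerular basement membrane genes and receptors, 6 were higher and 5 lower (91.7% called, against 59.7% of all tested genes), with a median of 0.00. With mitochondrial genes left out, 6 were higher and 3 lower, and with the length trend removed 6 were higher and 6 lower. Col4a3 rose from 248 to 929 normalised counts (log2 fold change 1.88, adjusted p = 1.62e-09, limma), and Col4a4 (0.76) and Lamb2 (1.04) also rose, Col4a4 by 0.24 with the length trend removed. The 5 called lower were Lama5 (-0.94), Agrn (-0.57), Lamc1 (-0.55), Cd151 (-0.54) and Dag1 (-0.36).

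**Figure D4:**
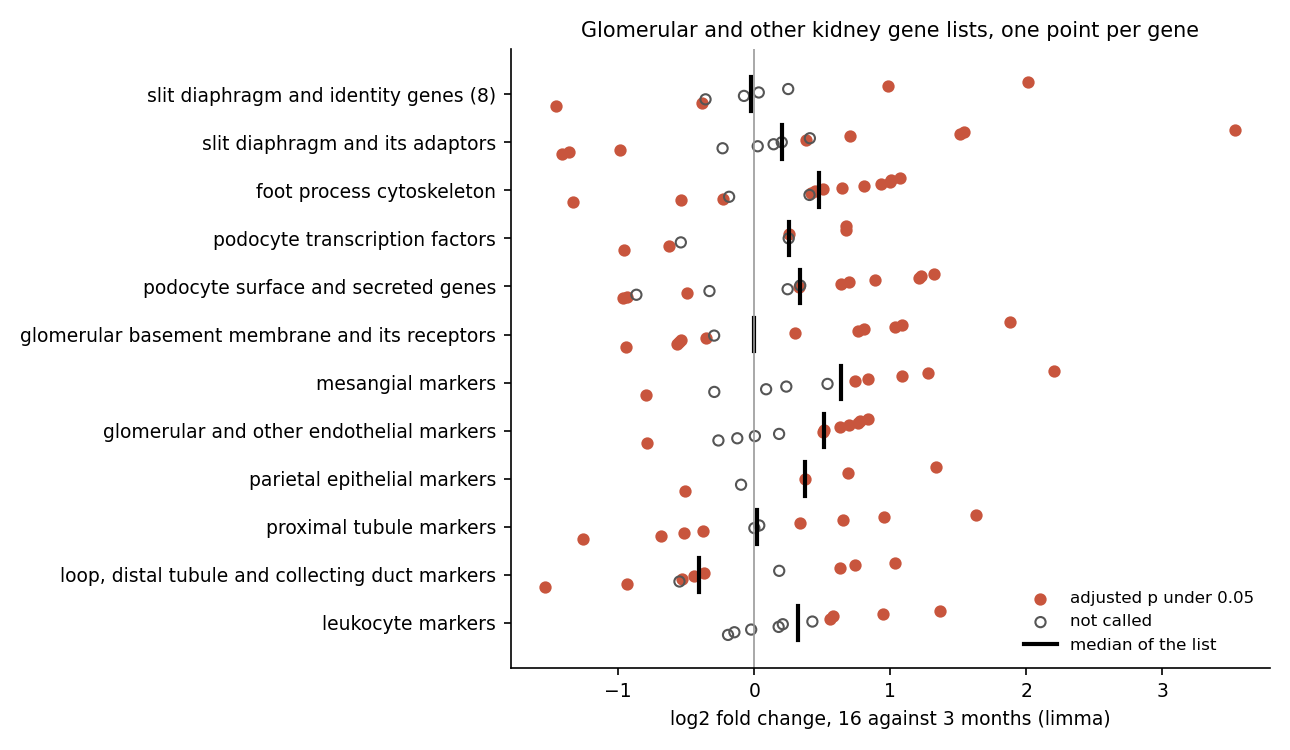
Log2 fold changes, old against young, of the tested genes of each gene list (filled points called, open points not called), with the list median as a bar and a vertical line at 0. The point farthest to the right is Kirrel, whose fitted value depends on the pseudocount and is no estimate of its fold. Each list holds genes on both sides of 0, and the 8 podocyte genes span -1.45 to 2.01.

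Markers of other kidney cells were called in shares of 60% (mesangial), 66.7% (endothelial), 80% (parietal, proximal and distal lists alike) and 40% (leukocyte), against 59.7% of all tested genes. Mesangial markers had 5 higher and 1 lower of 10 (median 0.64; Tagln 2.21, Cspg4 1.28 and Serpine2 1.09), and their summed level was 775 to 948 normalised counts in young and 1369 to 1649 in old libraries. Endothelial markers had 7 higher and 1 lower of 12 (median 0.51; Ptprb 0.83, Pecam1 0.76 and Flt1 0.63), with sums of 2322 to 2510 and 2924 to 3420. With the length trend removed, Ptprb was at 0.24 and not called (adjusted p = 0.073, limma), nor was Akap12 of the next list, and Lrp2 of the proximal list was also at 0.24 but called (adjusted p = 0.036, limma). Under the same setting Flt1 was at 0.29, C1qa at 0.95 and Cd74 at 0.91, all called. The endothelial list then had 5 higher and 1 lower (median 0.24), and the leukocyte list had 5 higher and none lower (median 0.69). Parietal epithelial markers had 3 higher and 1 lower of 5 (median 0.37; Pax2 1.33, Akap12 0.69 and Lad1 0.37), with sums of 955 to 1104 and 1313 to 1547. Leukocyte markers had 4 higher and none lower of 10 (median 0.32; Ptprc 1.37, Cd74 0.58 and C1qa 0.56), with sums of 1267 to 1466 and 1538 to 2096. Proximal tubule markers had 4 higher and 4 lower of 10 (median 0.02; Slc22a6 -1.26, Slc5a12 1.63 and Lrp2 0.95), with sums of 190560 to 222989 and 132746 to 185052. Kap holds most of that sum, and without it, an option chosen after seeing the data, the ages overlapped at 46639 to 49553 and 47123 to 62000. Loop, distal tubule and collecting duct markers had 3 higher and 5 lower of 10 (median -0.41; Aqp3 -1.54, Slc12a3 1.04 and Slc12a1 0.74), with sums of 12635 to 13411 and 15109 to 18190. Umod, Slc12a3 and Slc12a1 had the highest means of that list, 5379, 2106 and 1970 in young and 6153, 4295 and 3318 in old libraries. Its sum therefore follows these genes more than the other markers. The list had 4 higher and 3 lower (median -0.26) with mitochondrial genes left out and 4 higher and 4 lower (median -0.13) with the length trend removed. None of these markers was at 0 in every library. The part of these cells in the changes of the 8 genes was not tested.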

How the data were processed

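Kidney RNA of 4 young and 5 old wild-type mice was read by oligo(dT)-primed 3′ end sequencing. Per the submitters' notes and methods, the authors aligned reads to GRCm39 with TopHat2 2.0.10, counted them by strand with HTSeq 0.6.1 and normalised them with DESeq. The deposited signal is a normalised count per gene, 1 size factor per library; every value was a whole multiple of the value of 1 read (tolerance 0.01 of a read), from which whole reads were recovered. Reads carry no molecular identifiers, so floors and counts cover counting error only. Replicate numbers follow listing order.

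limma 3.58.1 (lmFit, eBayes with trend, R 4.3.3) was run on log2(normalised count + 1) with no covariate and Benjamini-Hochberg adjustment over all tested genes, a scale that understates the change of low genes. The test was checked on simulated data. Alternatives were pseudocounts of 0.1 and 5, other filters and scalings, robust eBayes, edgeR 4.0.16, DESeq2 1.42.0, thinning, length and GC trends, and leaving out each library.

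The members, lists and alternatives were chosen with earlier results of these data known. Named genes were the 8 members, the 3 called genes of largest moderated t in each list, Lmx1b, Cd2ap and Actn4, and the 5 genes most like the members' mean. Kirrel, Nfia, Umod and the basement membrane genes called lower were named after values were seen. Counts without Nphs1, Kirrel or Kap were also made after values were seen. Tcf21, Foxc2, Clic5, Thsd7a and Pla2r1 belong to the podocyte marker list. Gene positions came from GENCODE vM21 (GRCm38), not the authors' build. Reads on small same-strand genes inside Ptpro and Magi2 may have been left out of their counts. Some genes of the lists are not reported here and were left out of the list counts.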

Additional observations from a re-analysis of the deposited data

How the results depend on the processing

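The changes of Nphs1, Podxl and Synpo kept their direction and stayed called under every alternative that could be fitted. Wt1 was never called. With genes averaging under 100 normalised counts left out, 4101 of 5655 tested genes were called, where 7568 of 12667 had been, and 1 of the 4 podocyte genes still tested was called higher, Nphs1 not being tested. The number called lower was 1 with mitochondrial genes left out, 1 with the transcript length trend removed, and 1 to 2 when libraries were left out in turn, Cdkn1c being lost. Of the podocyte transcription factors, 3 were called with the length trend removed instead of 5. Leaving out libraries gave 3 to 5 genes called of the 8. With mitochondrial genes left out, the median of all genes moved to 0.13 and the higher share of calls from 48.9% to 58.5%. Plce1 changed sign with mitochondrial genes left out (0.0589), with edgeR (0.0883), with DESeq2 (0.0857), and its leave-one-out values ran from -0.25 to 0.21. They were 0.000323 without young replicate 2, 0.0658 without old replicate 1 and 0.206 without old replicate 2. With the length trend removed Plce1 was at -0.57 and not called (adjusted p = 0.160, limma). Ptpro changed sign when scaled to the table total (-0.0182), thinned (-0.0295), with the length trend removed (-0.14) and without old replicate 5 (-0.0931), and its leave-one-out values ran from -0.09 to 0.17. Magi2 was at -0.0615 with the length trend removed. The causes were not tested. The young and old libraries are separate samples with no pairing between the ages, so the analysis was unpaired. Reads per library were few for Nphs1 in young mice (9 to 16) and for Plce1 at both ages (16 to 26 in young and 7 to 29 in old).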
